A study of Drosophila melanogaster with 8 samples.

Results

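RNA polymerase II (RNAPII) occupancy was examined at the genes of the nuclear exosome and of the nuclear cap-binding complex in Drosophila melanogaster S2 cells depleted of the linker histone H1. The list held 6 genes, Rrp6, Csl4, Mtr4, Cbp20, Dis3 and Cbp80, and its members were the sites that the authors' annotation named for one of them. This rule was met by 7 of 14357 entries in the authors' deposited table. They formed 4 loci, at Rrp6, Csl4, Mtr4 and Cbp20, out of 7911 loci in all, and all 7 were annotated as promoters. No entry was named for Dis3 or Cbp80.

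S2 is an embryonic, hemocyte-like cell line. Chromatin was precipitated with an antibody against RNAPII from H1 knockdown cells (labelled KD H1) and from LacZ control cells, LacZ being a bacterial gene with no target in the fly. There were 8 libraries, 2 precipitations and 2 input libraries (10% of the chromatin) per condition. The labels name neither the knockdown reagent nor its duration and do not state whether the replicates are independent cultures. The p-values below may therefore reflect technical spread alone.

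The RNA exosome degrades and trims RNA from its 3-prime end. A barrel of subunits, capped by Csl4 among others, channels RNA to the nuclease Dis3, and in the nucleus a further nuclease, Rrp6, and the helicase Mtr4, which unwinds substrates, act with it. The nuclear cap-binding complex, made of Cbp20 and Cbp80, holds the cap of new RNAPII transcripts and connects them to processing, export and decay. Noncoding transcripts of intergenic DNA and repeats are among the known substrates of the nuclear exosome.

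Each entry is 1 peak of 1 of the 2 pooled peak lists, 7472 from H1 knockdown and 6885 from LacZ cells, so a locus found in both lists appears once per list with its own boundaries. For every entry the table holds the mean concentration of each condition, a log2 scale of reads in the peak, and their difference, H1 knockdown minus LacZ, called the fold here. Values per library and read depths are not known here, so no spread between replicates can be given. Of 10 hemocyte markers listed as an identity check, 9 had an RNAPII entry and NimC1 had none. Of 12 markers of neurons, muscle, germline and fat body, elav and bam had a promoter entry and Mhc an intergenic entry whose centre was at −2939 bp from its start, while the others had none under their own name. At the genes of H1 itself, 16 entries within 1000 bp of a His1 start had folds of 0.12 to 0.92 in the authors' deposited table. RNAPII at these repeated gene copies does not measure the depletion of H1.

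RNAPII concentration was higher in H1 knockdown than in LacZ cells at all 7 member entries, by 0.26 to 0.32 on the log2 scale in the authors' deposited table, or 1.20-fold to 1.25-fold. None of these differences passed a test. By DiffBind, 0 of the 7 entries had an FDR under 0.05, as did 0.0% of all entries, and every member entry had an FDR of 1. The authors' own call, an unadjusted p under 0.05, marked 0 of the 7, against 3.99% of all entries and 4.93% of promoter entries called higher, and 0.0557% of all entries called lower. An unadjusted p under 0.1 occurred at 3 member entries and at 8.54% of all entries. The share among promoter entries at this threshold was not computed. The 7 member entries are promoter entries at 4 loci, with overlapping windows, so they are not 7 separate observations.

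A fold above 0 was also the common state of the table, at 68.2% of entries. For each gene 1 site was taken, the promoter entry of highest mean concentration, or the highest entry where a gene had no promoter entry. Of 4755 genes, 4000 had a promoter site. A fold above 0 occurred at 86.6% of the 4755 genes. The median fold over all genes was 0.15, with 0.06 at the 25th and 0.25 at the 75th percentile. Over all promoter entries the median was also 0.15. All members are promoter sites, and their rank among promoter sites alone was not computed. The median over the 4 member genes was 0.305. All of them therefore lay above the 75th percentile of genes, and between 13.0% and 17.4% of genes had a larger fold than they did. Their narrow range was well populated, with 284 genes, or 6.0%, at a fold of 0.29 to 0.32.

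**Figure D1:**
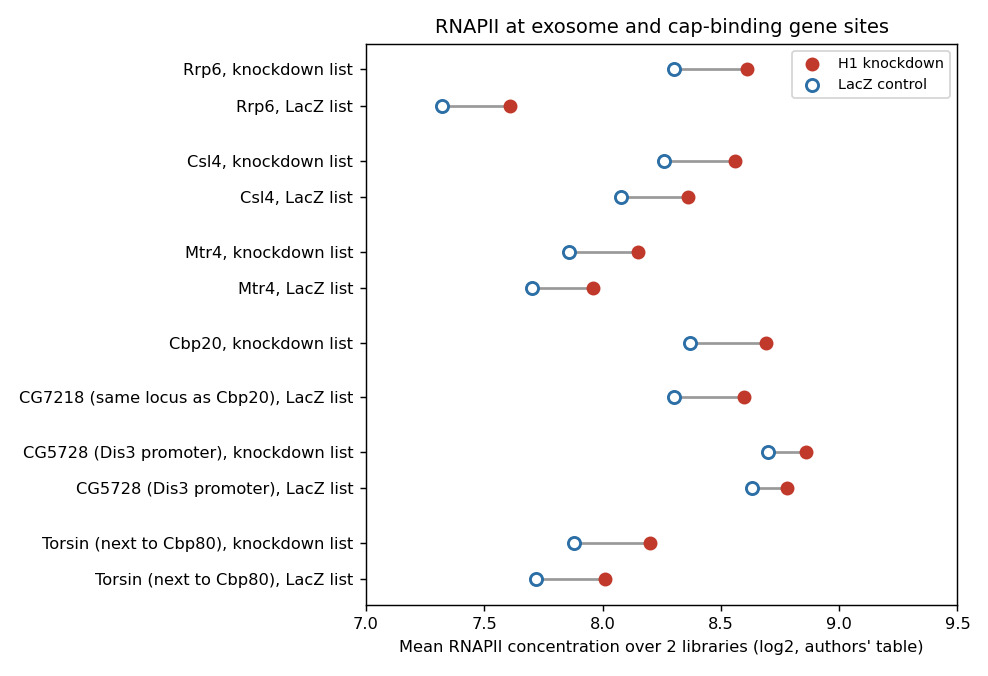
RNAPII concentration (log2, mean over 2 libraries per condition, from the authors' deposited table) at the 7 member entries and at 5 entries beside them, with H1 knockdown as filled red and LacZ control as open blue points. The gap is 0.26 to 0.32 at the member entries. Beside them it is 0.30 at CG7218, 0.32 and 0.29 at Torsin, and 0.15 to 0.16 at the CG5728 entries on the Dis3 promoter. Libraries are not shown, since the table gives no values per library.

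Rrp6 encodes the nuclease particular to the nuclear exosome. Its knockdown-list entry (arm 3R, 10711536 to 10712323 in dm3) had a concentration of 8.61 in H1 knockdown and 8.30 in LacZ cells, a fold of 0.31 with an unadjusted p of 0.0653 in the authors' deposited table. The LacZ-list entry (10711535 to 10711829) had 7.61 in H1 knockdown and 7.32 in LacZ cells, a fold of 0.29 with a p of 0.172 in the authors' deposited table. Both windows start within 1 bp of each other and differ in their far end, so the peak was 788 bp wide in the knockdown list and 295 bp wide in the LacZ list. Wider peaks in the knockdown list were general: of 3200 promoter loci with 1 peak of each list, 92.6% were wider there, with a median ratio of 1.10. The ratio of 2.67 at Rrp6 was exceeded at 0.4% of these loci, that of 1.31 at Csl4 and at Mtr4 at 11.9% and 11.6%, and that of 1.13 at the Cbp20 locus at 39.1%. Peak widths follow the caller's threshold and the depth of the pooled libraries, and the part of depth in this ratio was not tested. The annotation assigned the windows to the starts of different Rrp6 transcripts, 39 and 41 bp downstream of them, so the summit could not be placed relative to a single start. In the Release 6 table the span of Rrp6 overlaps that of CG3631, and CG33331 lies 209 bp from it. Neither of these genes had an entry. Whether the windows reach their starts was not analysed, so the folds of 0.31 and 0.29 are not shown to belong to Rrp6 alone.

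Csl4 encodes a subunit of the exosome cap. On arm 2L its knockdown-list entry (11123291 to 11124000) had a concentration of 8.56 in H1 knockdown and 8.26 in LacZ cells in the authors' deposited table, a fold of 0.30 with a p of 0.0933. Its LacZ-list entry (11123329 to 11123872) had 8.36 in H1 knockdown and 8.08 in LacZ cells, a fold of 0.28 with a p of 0.124 in the authors' deposited table. Both folds were within 0.02 of each other, but the LacZ-list window lies inside the knockdown-list window. They therefore share reads of the same libraries and are not independent values. The annotation placed both windows in the promoter of Nup160, a nuclear pore gene that lies next to Csl4, although Csl4 has the nearest start. The folds of 0.30 and 0.28 therefore cannot be assigned to Csl4 alone.

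Mtr4 encodes the helicase that feeds RNA to the nuclear exosome. At its start on arm 2L the knockdown-list entry (15752131 to 15752515) had a concentration of 8.15 in H1 knockdown and 7.86 in LacZ cells, a fold of 0.29 with a p of 0.109 in the authors' deposited table. The LacZ-list entry (15752170 to 15752463) had 7.96 in H1 knockdown and 7.70 in LacZ cells in the authors' deposited table, a fold of 0.26 with a p of 0.16. Mtr4 was the only member gene with an entry at the gene after it in the reference order: Gli, which encodes gliotactin, had folds of 0.15 and 0.13 in the authors' deposited table.

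Cbp20 encodes the cap-contacting subunit of the nuclear cap-binding complex and had 1 entry. It came from the knockdown list (3R, 13989916 to 13990633), with a concentration of 8.69 in H1 knockdown and 8.37 in LacZ cells, a fold of 0.32 and a p of 0.0652 in the authors' deposited table. That p was the smallest among the members, and 5.26% of all entries had a smaller one. The locus was nevertheless bound in both lists: an overlapping LacZ-list entry (13989907 to 13990544) was named for the adjacent gene CG7218. It had 8.60 in H1 knockdown and 8.30 in LacZ cells, a fold of 0.30 with a p of 0.0816 in the authors' deposited table. The absence of a LacZ entry under the name Cbp20 goes with which start was nearest to the centre of each window, and all 4 member loci held a peak of both lists.

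Dis3 encodes the core nuclease, and RNAPII entries at its promoter carried another gene's name. A pair of entries on 3R was annotated to the promoter of a Dis3 transcript but named for CG5728, whose start was nearer and which the Release 6 table calls Rrp5. The knockdown-list entry (20158773 to 20159377) had a concentration of 8.86 in H1 knockdown and 8.70 in LacZ cells, a fold of 0.16 with a p of 0.36 in the authors' deposited table. Its LacZ-list counterpart (20158798 to 20159334) had 8.78 in H1 knockdown and 8.63 in LacZ cells, a fold of 0.15 with a p of 0.374 in the authors' deposited table. These folds were close to the median of all genes and lower than those at the 4 named members. Whether they differ from them was not tested. Folds varied with RNAPII level across the table, and the level at this promoter is given with those of the members below.

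For Cbp80, the partner of Cbp20, no entry was named for it or annotated to its transcripts. The candidate examined was the promoter of Torsin, the gene before Cbp80 in the reference order, whose span overlaps that of Cbp80 in the Release 6 table. CG15473, the gene after Cbp80, also overlaps it there and had no entry. The Torsin entries on X (4543603 to 4544239 in the knockdown list and 4543658 to 4544163 in the LacZ list) had folds of 0.32 and 0.29 with p-values of 0.0803 and 0.117 in the authors' deposited table. Their concentrations were 8.20 in H1 knockdown and 7.88 in LacZ cells for the knockdown-list entry, and 8.01 in H1 knockdown and 7.72 in LacZ cells for the LacZ-list entry, in the authors' deposited table. How far they lie from the start of Cbp80 was not analysed here, so these values are not counted for Cbp80.

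Because ChIP-seq reads do not tell which gene of a pair a polymerase is transcribing, the summit of each peak was placed relative to the annotated starts. The start and strand of a transcript were recovered from the authors' signed distances wherever 2 or more entries with different centres pointed to 1 position within 2 bp, which held for 95.4% of 2457 transcripts. Over 3278 promoter entries placed in this way, the summit lay at a median of 48 bp downstream of the start (25th percentile 35 bp, 75th percentile 64 bp). Polymerase that pauses shortly after initiation is known to accumulate in this interval.

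At Mtr4 the summit lay 62 bp downstream of the start in the knockdown list and 61 bp downstream in the LacZ list. At Csl4 it lay 45 bp downstream of the Csl4 start in the knockdown list and 56 bp downstream in the LacZ list, although the window centres were upstream of it, at −78 and −33 bp. The peak at Csl4 thus had its maximum on the Csl4 side, while the knockdown-list window reached to −433 bp on the Nup160 side. Whether that window holds the start of Nup160 was not analysed.

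The Cbp20 locus showed the opposite arrangement. The order of CG7218 and Cbp20 in the reference table left 1 combination of strands, with starts 264 bp apart and transcription in opposite directions. In the knockdown list the summit was at −312 bp from the Cbp20 start, that is upstream, and 48 bp downstream of the CG7218 start. In the LacZ list it was at −386 bp from the Cbp20 start and 122 bp downstream of the CG7218 start. The maximum of RNAPII at the entry named Cbp20 was therefore on the CG7218 side in both lists, and the fold of 0.32 cannot be assigned to Cbp20 alone. At the Dis3 promoter the summits lay 46 bp (knockdown list) and 40 bp (LacZ list) downstream of the CG5728 start, which places them on the CG5728 side.

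**Figure D2:**
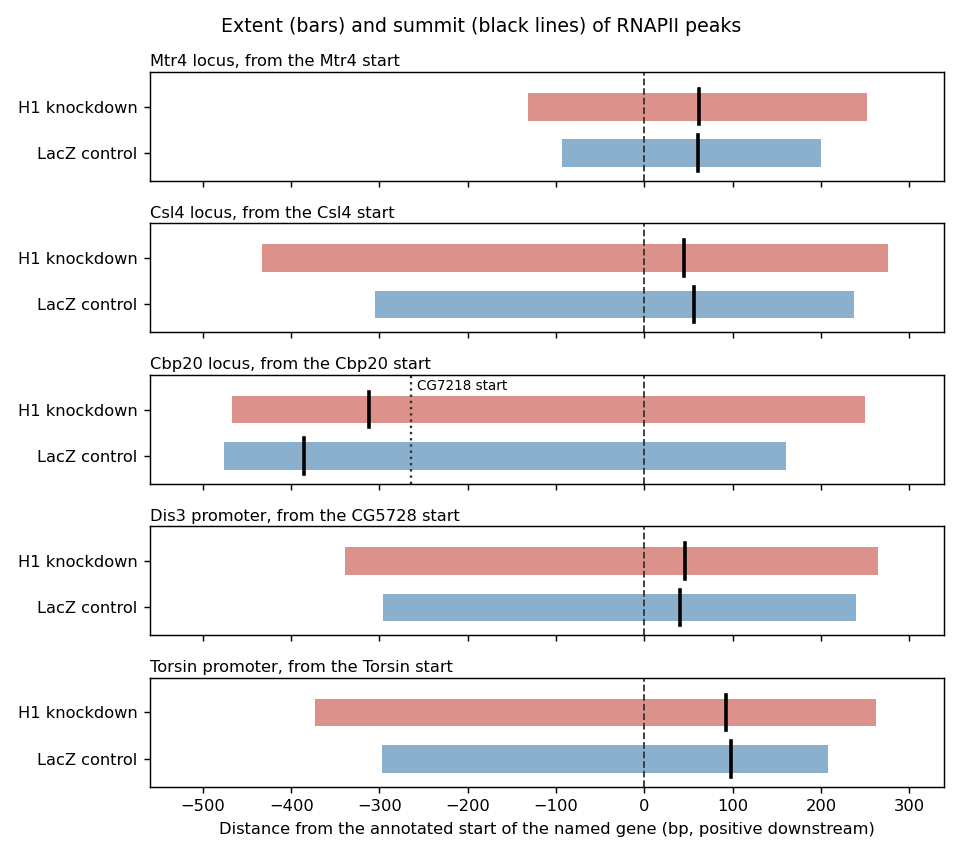
Extent (bars) and summit (black lines) of the peaks of the H1 knockdown list and the LacZ control list, in bp from the annotated start of the named gene, positive downstream. At Mtr4 and Csl4 the summits are 45 to 62 bp downstream of the dashed start, whereas at Cbp20 they are at −312 and −386 bp, beyond the dotted start of CG7218. The Rrp6 locus is not drawn because its start could not be placed.

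Levels were compared between genes per length, as log2 concentration per kilobase of peak. Among knockdown-list promoters, whose median was 9.4 in H1 knockdown and 9.22 in LacZ cells, Rrp6 had 8.95 in H1 knockdown and 8.64 in LacZ cells, and Csl4 9.05 in H1 knockdown and 8.75 in LacZ cells. Cbp20 had 9.17 in H1 knockdown and 8.85 in LacZ cells on this per-kilobase scale, and Mtr4 9.53 in H1 knockdown and 9.24 in LacZ cells. In LacZ cells, 5.4% of knockdown-list promoters had a lower per-kilobase level than Rrp6, 11.0% than Csl4, 16.3% than Cbp20 and 52.0% than Mtr4. For the CG5728 entry on the Dis3 promoter this share was 70.6%. In these knockdown-list windows the order of the members' per-kilobase levels was Mtr4, Cbp20, Csl4, Rrp6 in both conditions. In the LacZ-list windows Rrp6 (9.37 in H1 knockdown, 9.08 in LacZ cells) was above Csl4 (9.24 in H1 knockdown, 8.96 in LacZ cells) and below Mtr4 (9.73 in H1 knockdown, 9.47 in LacZ cells). The order of Rrp6 and Csl4 thus changed with the window, and without values per library neighbouring ranks cannot be tested. The authors' fold enrichment over input ranked the 4 knockdown-list peaks differently, with Mtr4 (3.65) and Csl4 (3.47) above Rrp6 (2.86) and Cbp20 (2.23), all under the median of 4.92 for promoters in that list. Over the LacZ-list promoters the median enrichment was 4.52, and Mtr4 (2.68), Csl4 (2.62) and Rrp6 (2.13) were again lower.

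The fold of a promoter varied with its level across the whole table. When 4000 genes with a promoter site were divided by mean concentration per kilobase into 4 groups of 1000, from low to high, the median folds of groups 1 to 4 were 0.29, 0.20, 0.14 and 0.07. Rrp6, Csl4 and Cbp20 belonged to group 1, in which the 25th and 75th percentiles of the fold were 0.21 and 0.37, and their folds of 0.31, 0.30 and 0.32 lay between these percentiles. Mtr4 belonged to group 3, with percentiles of 0.09 and 0.20, and its fold of 0.29 was above the 75th percentile there. Levels and folds come from the same libraries, and this grouping is a description with no test. Grouping by concentration without regard to length placed Cbp20 in group 3, with a median of 0.14 and a 75th percentile of 0.21. Rrp6, Csl4 and Mtr4 were then in group 2, with a median of 0.21 and a 75th percentile of 0.29. Cbp20, Rrp6 and Csl4 lay above these 75th percentiles and Mtr4 did not. Grouping knockdown-list entries by fold enrichment placed Rrp6 and Cbp20 in group 1 (median 0.25, 75th percentile 0.35). Csl4 and Mtr4 were in group 2 (median 0.22, 75th percentile 0.30), and no member lay above its 75th percentile. With entries of the LacZ list alone, grouped per kilobase, Rrp6 (0.29) and Csl4 (0.28) were again in group 1, but its median was 0.19 and its 75th percentile 0.27, so both lay above that percentile. Mtr4 (0.26) was in group 3 of that list, with a median of 0.11 and a 75th percentile of 0.17. How close the members were to genes of like level thus depended on the measure of level and on the peak list.

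**Figure D3:**
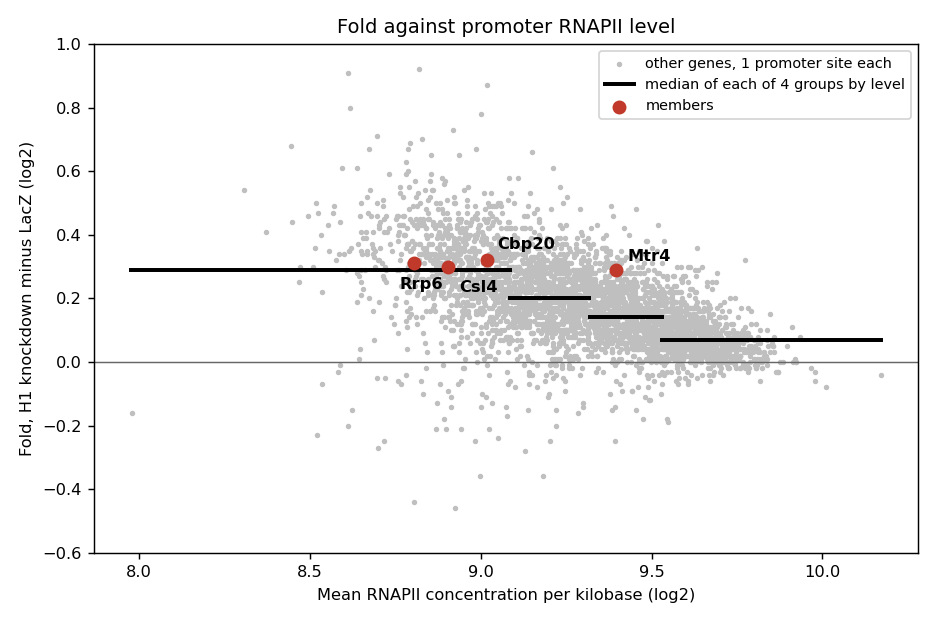
Fold (log2 difference of H1 knockdown and LacZ, from the authors' deposited table) against mean RNAPII concentration per kilobase (log2) for 4000 genes with 1 promoter site each, 1 of them outside the vertical range. Black bars are the medians of the 4 groups by level, from 0.29 in the lowest to 0.07 in the highest; Rrp6 (0.31), Csl4 (0.30) and Cbp20 (0.32) lie in the lowest group and Mtr4 (0.29) in group 3, whose median is 0.14.

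The genes with the pair of concentrations most like each member's were found by Euclidean distance over the means of both conditions, with 1 site per gene. They were tum for Rrp6 (distance 0.00), Nct for Csl4 (0.01), CycH for Cbp20 (0.01) and alien, level with 1 other gene, for Mtr4 (0.01). Only these 2 means enter the distance, and 103 to 142 genes lay within 0.1 of each member.

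Other genes of RNA decay and processing were examined in 11 lists, which hold 89 genes besides the members. Of these, 84 were found in the reference table and 34 had an entry under their own name. The names omd for IntS5 and CG11486 for PAN3 were counted as their own. All 34 had a fold above 0, against 86.6% of all genes, with a median of 0.21, against 0.15 for all genes. The authors called 4 of the 34 higher (11.8%) and none lower at an unadjusted p under 0.05, against 6.16% of all genes higher and 0.0421% lower. By DiffBind, 0 of the 34 had an FDR under 0.05. The sites of all 34 were promoter sites, whereas 4000 of the 4755 genes had one. The shares and the median over those 4000 genes alone were not computed.

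Of 8 nuclear exosome cofactors, 3 had an entry, Mtr4 among them. Trf4-1, a poly(A) polymerase that tags RNA for the exosome, had a concentration of 9.56 in H1 knockdown and 9.16 in LacZ cells, a fold of 0.40 with a p of 0.0224 in the authors' deposited table, and was called higher. Rrp47, the partner of Rrp6, had 8.15 in H1 knockdown and 7.82 in LacZ cells, a fold of 0.33 with a p of 0.1 in the authors' deposited table. Trf4-2 had no entry. Of the exosome core, Csl4 was the only subunit of 8 with an entry under its own name. Entries at the promoters of Rrp42 and Rrp46 were named for Prosbeta1 and Irp-1B and had folds of 0.28 and 0.18 in the authors' deposited table. An entry at the end of Rrp4, named for pita, had 0.20 in the authors' deposited table, while Rrp40, Ski6, Rrp45 and Mtr3 had none.

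Around the cap-binding complex, Ars2, which links it to decay and to small RNA pathways, had 8.32 in H1 knockdown and 8.13 in LacZ cells, a fold of 0.19 with a p of 0.314 in the authors' deposited table. Phax, an export adaptor of capped small nuclear RNAs in vertebrates, had no entry of its own. The cytoplasmic cap-binding gene eIF4E1 had a fold of 0.30 with a p of 0.143 in the authors' deposited table, and was the only 1 of 7 such genes with an entry under its name. Of 9 export factors, 5 had an entry, with folds of 0.03 at sbr, the main export receptor, up to 0.32 at its cofactor Nxt1 (p = 0.0827) in the authors' deposited table. Between these, thoc7 had 0.26, Ref1 0.21 and tho2 0.20 in the authors' deposited table.

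Deadenylase genes, whose products shorten poly(A) tails, had a median fold of 0.29 over 6 genes. Rga, a subunit of the CCR4-NOT complex, had 9.03 in H1 knockdown and 8.68 in LacZ cells, a fold of 0.35 with a p of 0.0414 in the authors' deposited table, and was called higher. Not3 had a fold of 0.31 and Pop2 and Rcd-1 0.29 each in the authors' deposited table, while twin had 0.14 and PAN3 (named CG11486) 0.04. For exonucleases and decapping factors the median was 0.18 over 5 genes, with LSm3 at 0.31 (p = 0.0672), me31B at 0.27, Ge-1 at 0.18, and DCP2 and pcm at 0.16 each in the authors' deposited table. No gene of the cytoplasmic exosome cofactors had an entry under its own name.

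Cleavage and polyadenylation genes had a median of 0.18 over 8 genes, and 2 of them were called higher. Nab2, which binds poly(A), had 7.79 in H1 knockdown and 7.29 in LacZ cells, a fold of 0.51 with a p of 0.0137 in the authors' deposited table, and Fip1 had 8.15 in H1 knockdown and 7.76 in LacZ cells, a fold of 0.40 with a p of 0.0373. The annotation placed the Nab2 entry in the promoter of the gene BRWD3. Wdr33 had 0.26 and su(f) 0.21 in the authors' deposited table. Cpsf160 and Sym had 0.15 each, Pabp2 0.14 and Pcf11 0.10 in the authors' deposited table. Integrator subunit genes, whose products cleave nascent RNA, had a median of 0.19 over 6 genes, with IntS4 at 0.29 (p = 0.133), IntS10 at 0.21, IntS5 (named omd) at 0.19 and IntS3 at 0.19 in the authors' deposited table. IntS1 had 0.16 and IntS6 0.08 in the authors' deposited table. The IntS4 entry (X, 8452656 to 8453045) lies directly before that of Trf4-1 (X, 8453665 to 8455185).

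**Figure D4:**
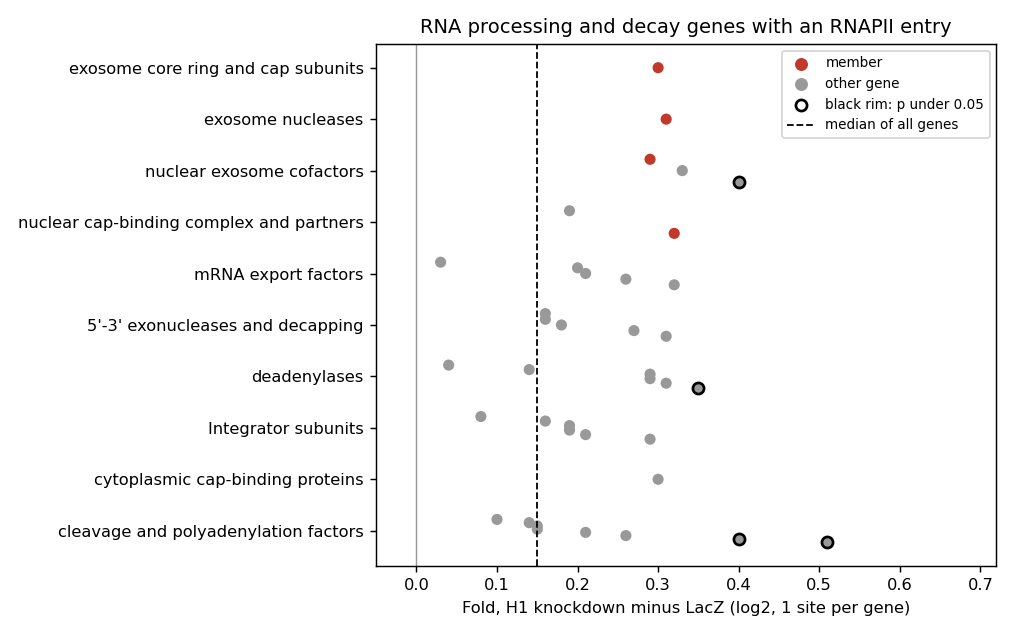
Fold (log2, H1 knockdown minus LacZ, 1 site per gene, from the authors' deposited table) of the 4 members (red) and the 34 other genes with an entry (grey), by list. The dashed line is the median of all genes, 0.15; the 4 genes with a black rim, Trf4-1, Rga, Fip1 and Nab2, had an unadjusted p under 0.05, and all 4 members lie between 0.29 and 0.32 without one.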

How the data were processed

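The submitters' processing notes name Bowtie2 2.2.2, the dm3 build, MACS 1.4.2, DESeq2 and DiffBind 2.10.0, without roles or settings, while the peak names say MACS2. The authors' deposited table gives log2 mean concentrations per condition, a log2 fold, a p-value and an FDR per entry. The scaling of the libraries is not stated. Peak names say that the authors called peaks on pooled libraries of each condition. Per the file headers, peaks carry a fold enrichment ratio over input, −log10 p and q values, a pileup signal and an integer score; the deposited −log10 q served only as a stricter threshold, and the deposited signal and score were not used. The annotation columns are Homer's, per the file headers.

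From these, folds per gene (promoter entry of highest mean concentration, otherwise the highest entry), concentration per kilobase (log2 concentration minus log2 of the width in kilobases), loci (overlap of at least 1 bp) and summit distances were computed with Python 3.11.15, pandas 2.3.3, numpy 2.4.6 and matplotlib 3.10.9. The functions were tested on simulated data. The fold equalled the difference of the concentrations to within 0.01. Gene symbols, transcripts and gene order came from a RefSeq Release 6 table, in which 5 listed genes had no match. Its positions were not used with dm3, but its gene lengths were, to settle the strands of Cbp20 and CG7218. No sequences were printed, since none were provided. The planned fit across libraries and motif counts were not run, as the files used give no values per library and no promoter sequence. Members, lists and tests were chosen with earlier results of these data known, and the level groups and summit distances were added after their values were seen. The text names all members, their neighbours with entries and some neighbours without one. It also names up to 4 genes per list by smallest p, and the gene most alike to each member. Outside this rule fall sbr, twin, PAN3, pcm, Cpsf160, Sym, Pabp2, Pcf11, IntS1 and IntS6. They were added after their values were seen, to show the low end of their lists.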

Additional observations from a re-analysis of the deposited data

How the results depend on the processing

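A value without a test counted as unchanged when it moved by less than 0.1 on the log2 scale. The site was also chosen as the nearest to the start, that of highest concentration, the mean of all sites or the entries of 1 peak list. The folds of Rrp6, Csl4, Mtr4 and Cbp20 were then between 0.26 and 0.32, and no member entry had a p under 0.05. These choices could change little, since Rrp6, Csl4 and Mtr4 each have 2 overlapping windows at 1 locus, counted in the same libraries. Cbp20 has 1 entry and no LacZ-list entry under its own name, so its fold could not change. Subtracting the median fold of promoter entries, 0.15, which lets that median stand for no change, left 0.16 at Rrp6, 0.15 at Csl4, 0.14 at Mtr4 and 0.17 at Cbp20, and a median of 0.155 over the 4 genes. Counts of calls at stricter or looser thresholds add nothing here, since no member entry has a p under 0.05 and each has an FDR of 1. With a reciprocal overlap of at least 50%, 3 of the 4 loci held a peak of both lists, because the Rrp6 peaks differ in width. With the 4 groups by level, which were chosen after seeing the data, the median fold of the group of Cbp20 was 0.29 per kilobase, 0.25 by fold enrichment and 0.14 by concentration. For Rrp6 and Csl4 it was 0.29 per kilobase, 0.21 by concentration and 0.19 with LacZ-list entries alone. By fold enrichment it was 0.25 for Rrp6 and 0.22 for Csl4. For Mtr4 it was 0.14 per kilobase, 0.21 by concentration, 0.22 by fold enrichment and 0.11 with LacZ-list entries alone. The cause of these differences was not tested. The medians of the lists moved by less than 0.1 with each choice of site. No paired analysis was possible because the files used give 1 mean per condition and no values per library; leaving out a replicate was not run for the same reason, and the depth behind each value is unknown.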

Other observations

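Besides Dis3, 18 of the 89 other decay and processing genes had no entry under their own name but an entry annotated to 1 of their transcripts and named for another gene. The promoter of Mpp6, an exosome cofactor, carried an entry named E2f2 with a fold of 0.33, that of Zcchc7 one named kud with 0.06, and that of Phax one named Mys45A with 0.14 in the authors' deposited table. Rat1, the nuclear exonuclease that acts in termination, shared an entry named CG13773 with 0.15, and Patr-1 one named CG3995 with 0.21 in the authors' deposited table. With these 18 genes added, the median fold of the other pathway genes was 0.195, against 0.21 without them. These genes were chosen after their values were seen.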
